A study of Mus musculus with 24 samples.

Results

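The genes described here are 9 genes of the retinoic acid pathway, chosen by their symbols in the expression table: Stra6, Crabp1, Crabp2, Aldh1a2, Cyp26a1, Cyp26b1, Rara, Rarb and Rarg. They were found as 9 of the 22667 genes listed, all 9 had counts, and all 9 passed the filter on low counts that left 16627 genes to test. RNA sequencing of polyadenylated RNA covered mouse embryonic stem cells (ESCs), the neural precursor cells (NPCs) obtained from them by day 7, day-10 cells sorted for polysialylated NCAM, a surface protein of young neurons and their precursors (PSA-NCAM+ cells), and neurons grown for 14 days after NPCs had been replated at day 7. At each stage, 3 wild-type (WT) samples and 3 slow/slow samples were sequenced, 24 in all. Slow/slow cells carry R749H, an arginine-to-histidine substitution, on both alleles of Polr2a, the gene of the largest subunit of RNA polymerase II, and the study describes this polymerase as slow in elongation.

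The slow/slow line was made by targeting both alleles of E14 ESCs one after the other, and the number of clones behind the samples was not given in the sources used here. By the methods, ESCs were cultured with fetal calf serum and LIF and passaged in 2i medium with LIF before differentiation. Differentiation was started in N2B27 medium without serum, LIF or the 2i inhibitors, and neurons were grown with ascorbic acid and cAMP. Retinoic acid is not among the additions listed. The B27 supplement is listed by product and catalogue number, but no source used here states whether it contained vitamin A. From the start of differentiation, WT cells were plated at 10000 and slow/slow cells at 30000 cells per cm2, so that genotype and plating density cannot be told apart in NPCs, PSA-NCAM+ cells and the neurons grown from such NPCs. The methods speak of 3 independent differentiations for ESCs, NPCs and neurons, but the labels name no culture, so p-values measure the spread between these samples, which may in part be technical. That spread was estimated over all 8 groups in 1 model, not from the samples of a comparison alone. Library totals ranged from 32974432 to 104466886 counts. The counts of Polr2a do not separate its alleles and were no check of the genotype labels. Polr2a fell by 0.94 on the log2 scale in slow/slow neurons (edgeR, FDR = 7.76e-05) and was not called at the other stages. Both PSA-NCAM+ samples numbered 1 had the lowest mean correlation, over genes, with the rest of their group. It was 0.982 in WT and 0.967 in slow/slow cells. The other 22 libraries ranged from 0.981 to 0.999, which takes in the WT value but not the slow/slow value. Results in PSA-NCAM+ cells are therefore also given without the samples numbered 1. All PSA-NCAM+ libraries lay at 0.9896 or lower, and those of the other stages at 0.9979 or higher. As each gene had 1 spread for all stages, FDR values may be too small in PSA-NCAM+ cells and too large elsewhere.

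Retinoic acid is a derivative of vitamin A that diffuses into cells and acts in the nucleus as a ligand of transcription factors. Stra6 is a membrane receptor through which cells take up retinol, and Aldh1a2 is the retinaldehyde dehydrogenase that makes most retinoic acid in the embryo. Crabp1 and Crabp2 bind retinoic acid in the cytoplasm, Crabp2 passing it to receptors, while the cytochrome P450 enzymes Cyp26a1 and Cyp26b1 oxidise it for removal. Rara, Rarb and Rarg encode the nuclear receptors, which pair with retinoid X receptors on direct repeats of a short half-site and regulate genes such as Rarb, Cyp26a1 and the 3′ Hox genes. In the developing neural tube the pathway is known for patterning the hindbrain and spinal cord and for promoting neuronal differentiation.

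Promoters are shown for Rarb and Cyp26a1, textbook targets of the receptors, and for Crabp1 and Cyp26b1, the members with the largest differences between genotypes. RefSeq windows of GRCm38.p6, from 250 bases before to 50 bases after a RefSeq start, of which a gene can have several, were given for 8 of the 9 members, 15 windows in all, and Crabp2 had none. Each window was searched on both strands for the half-site AGGTCA, for its variants, which were AGTTCA as well as GGTTCA and also the letters GGGTCA, and for direct repeats of these spaced by 2 or 5 bases. The stretches printed here are the 250 bases before the start, in the direction of the gene, with the direct repeat in capitals. The stretch of Rarb lies at chr14:16575477-16575726 on the minus strand, that of Cyp26a1 at chr19:37697558-37697807 on the plus strand, that of Crabp1 at chr9:54764498-54764747 on the plus strand and that of Cyp26b1 at chr6:84593811-84594060 on the minus strand.
Rarb: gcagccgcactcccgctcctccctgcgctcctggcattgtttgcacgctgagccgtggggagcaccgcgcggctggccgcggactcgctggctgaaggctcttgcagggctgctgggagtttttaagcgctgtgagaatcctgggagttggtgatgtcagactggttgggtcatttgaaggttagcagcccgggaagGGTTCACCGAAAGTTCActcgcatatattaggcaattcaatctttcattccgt
Cyp26a1: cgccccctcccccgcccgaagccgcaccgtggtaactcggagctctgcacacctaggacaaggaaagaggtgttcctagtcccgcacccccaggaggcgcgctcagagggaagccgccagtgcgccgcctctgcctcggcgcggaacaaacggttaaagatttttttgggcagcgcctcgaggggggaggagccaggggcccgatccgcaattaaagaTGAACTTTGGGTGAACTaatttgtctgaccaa
Crabp1: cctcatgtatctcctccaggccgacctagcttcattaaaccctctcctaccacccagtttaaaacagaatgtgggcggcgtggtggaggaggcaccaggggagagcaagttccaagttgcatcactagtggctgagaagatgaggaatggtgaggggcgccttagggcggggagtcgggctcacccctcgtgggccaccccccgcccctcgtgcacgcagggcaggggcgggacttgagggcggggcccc
Cyp26b1: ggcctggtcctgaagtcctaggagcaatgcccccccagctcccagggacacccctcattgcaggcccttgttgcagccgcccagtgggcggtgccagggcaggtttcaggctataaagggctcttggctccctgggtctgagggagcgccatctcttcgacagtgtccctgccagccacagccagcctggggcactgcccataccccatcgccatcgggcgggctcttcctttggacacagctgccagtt

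A direct repeat was found in the windows of Rarb and Cyp26a1, and in no other of the 15 member windows. That of Rarb, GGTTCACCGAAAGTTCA, was spaced by 5 bases and started 53 bases before the RefSeq start of that window. This start lies inside the span of Rarb in GENCODE, chr14:16430839-16819156, downstream of the start of its longest extent. That of Cyp26a1, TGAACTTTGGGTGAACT, had the same spacing on the opposite strand and started 32 bases before its RefSeq start. Of all 32851 windows of this length, 0.0974% held a repeat spaced by 5 bases and 0.268% one spaced by 2 bases, while 43.7% held at least 1 half-site. The windows of Crabp1, Cyp26b1 and Aldh1a2 held no half-site, which says only that these letters are absent from these windows.

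Levels per transcript length were read from the authors' mean RPKM (reads per kilobase of transcript, scaled to library size) of each group, which carries no error. In WT ESCs the order was led by Rarg at 54.8, Crabp1 at 19.6 and Rara at 16.4 RPKM, while Cyp26a1 and Cyp26b1 were lowest at 0.253 and 0.110 RPKM. Rarg also led in WT NPCs with 82.1 RPKM and in WT PSA-NCAM+ cells with 55.9 RPKM. In slow/slow NPCs and PSA-NCAM+ cells the lead passed to Crabp1, at 682 and 1026 RPKM, above 99.6% and 99.7% of the 21553 genes with counts. In neurons Crabp1 and Crabp2 were highest in both genotypes, at 95.7 and 67.7 RPKM in WT and 283 and 237 RPKM in slow/slow cells, and Cyp26b1 followed in slow/slow neurons with 144 RPKM. Aldh1a2 was lowest of the 9 in slow/slow NPCs and PSA-NCAM+ cells, at 0.953 and 0.880 RPKM.

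**Figure D1:**
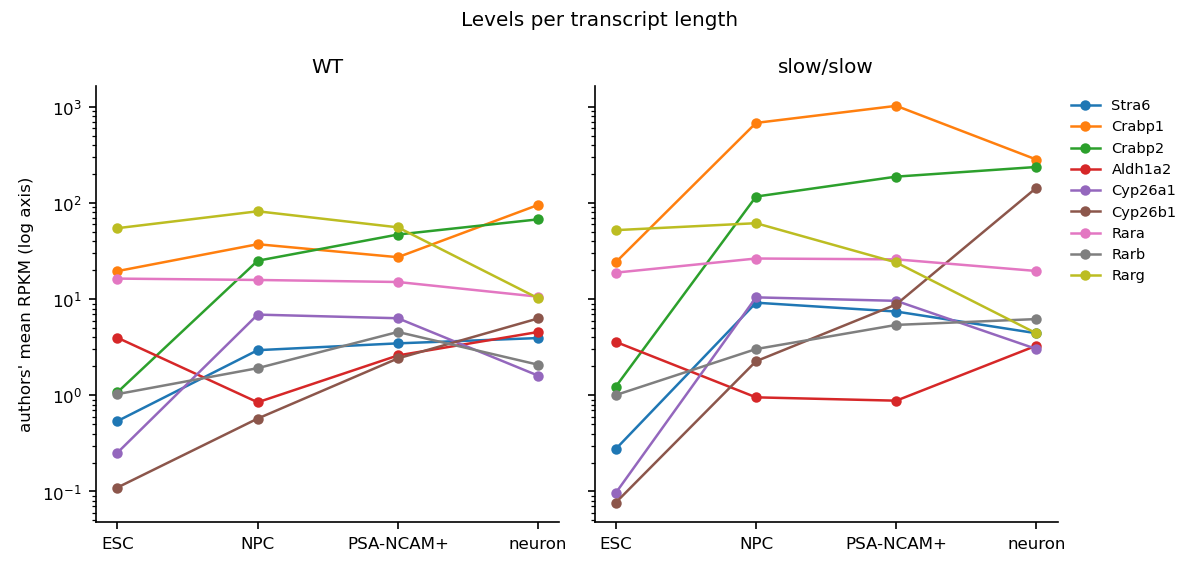
Levels of the 9 genes per transcript length, as the authors' mean RPKM of each group on a log axis, in WT (left) and slow/slow cells (right) at the 4 stages, with lines that only join the points of a gene. Crabp1 reaches 1026 RPKM in slow/slow PSA-NCAM+ cells against 27.3 RPKM in WT, and Rarg is lower in neurons than at any other stage in both genotypes.

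Comparing slow/slow with WT cells within a stage asks which members differed between the genotypes, with plating density differing alongside after ESCs. The test was edgeR's quasi-likelihood F test over all 24 samples, with a Benjamini-Hochberg adjusted p (FDR) under 0.05 called, and every adjusted p below comes from it unless another tool is named. In ESCs none of the 9 was called higher, against 18.5% of all genes tested, and 1 (Stra6) was called lower, against 21.9%. In NPCs 6 were called higher and 1 lower, where 29.3% and 27.4% of all genes were. In PSA-NCAM+ cells 5 were called higher and 2 lower, against 28.6% and 28.1% of all genes. In neurons 5 were called higher and 2 lower, against 23.4% and 28.4%. The median log2 change of the 9 was -0.04 for ESCs, then 0.78 for NPCs, next 0.89 for PSA-NCAM+ cells and 0.79 for neurons, while the median of all genes lay between -0.06 and 0.01. Upper-quartile scaling moved the median of all genes in neurons from -0.06 to 0.09, and the share of calls that were higher from 45.2% to 59.2%. In bulk samples, more cells that express a gene and more RNA per cell cannot be told apart.

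**Figure D2:**
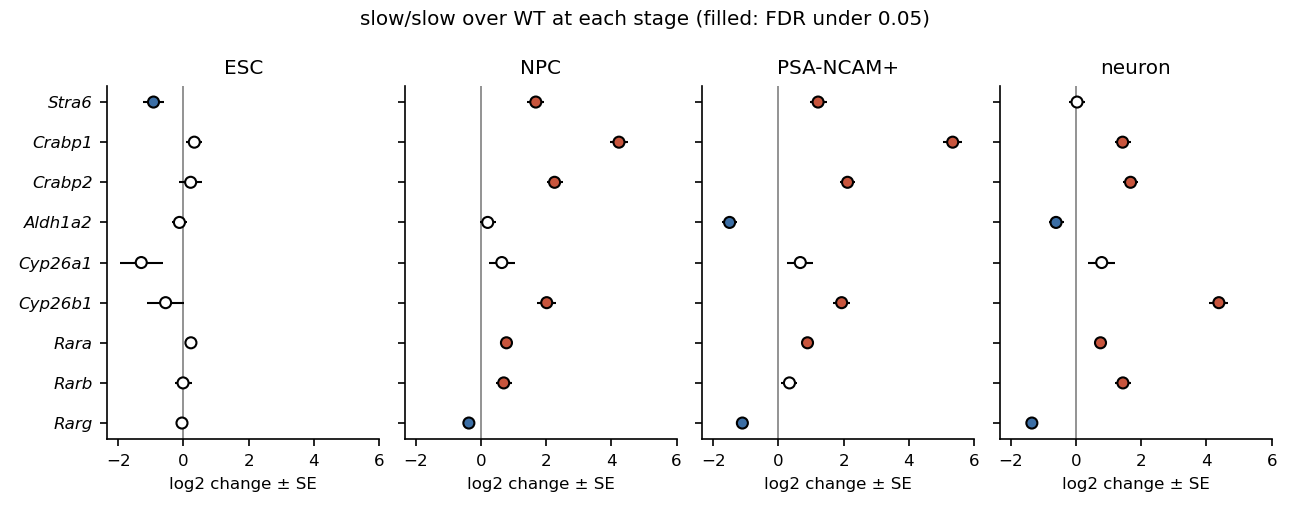
Log2 change of slow/slow over WT cells for the 9 genes at each stage, as points with the standard error (SE), filled red for a called rise, blue for a called fall and white where the FDR was not under 0.05. One point is filled in ESCs and 7 are filled at each later stage, with Crabp1 farthest to the right in NPCs and PSA-NCAM+ cells and Cyp26b1 in neurons.

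Levels as CPM are counts scaled to library size with TMM factors. They are given for each library in the order of the replicate numbers, which were not shown to pair samples. Stra6 (ENSMUSG00000032327, GRCm38 chr9:58063788-58153996, plus strand) overlaps Gm16131 and, on the other strand, Ccdc33, and as the use of strand in counting was not stated its reads cannot be separated from theirs. In WT ESCs it stood at 1.41, 1.72 and 1.58 CPM and in slow/slow ESCs at 0.859, 0.921 and 0.681 CPM, from 22 to 93 counts per library. The slow/slow libraries all lay below the WT libraries, and Stra6 fell by 0.91 on the log2 scale (SE 0.32, FDR = 0.0272). This call was lost on leaving out WT ESC replicate 2 or 3 or slow/slow ESC replicate 1 or 3, with FDR values up to 0.0934.

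In NPCs Stra6 stood at 7.07, 8.39 and 7.26 CPM in WT and at 23.4, 22.9 and 26.7 CPM in slow/slow libraries, which did not overlap. It rose 3.21-fold there (log2 1.68 ± 0.27 SE, FDR = 2.58e-05). In PSA-NCAM+ cells it stood at 7.53, 9.38 and 9.43 CPM in WT and at 8.72, 25.8 and 26.5 CPM in slow/slow libraries, so that replicate 1 of the slow/slow cells lay among the WT libraries. The log2 change was 1.22 ± 0.26 (SE, FDR = 0.000570) with all libraries and 1.48 (FDR = 5.37e-10) without both samples numbered 1, and the call was lost when only the samples of that stage were fitted (FDR = 0.0790). In neurons Stra6 stood at 9.52, 10.6 and 11.6 CPM in WT and 12.8, 11.1 and 8.61 CPM in slow/slow libraries. The groups overlapped, and the log2 change was 0.03 ± 0.26 (FDR = 0.924).

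Crabp1 (ENSMUSG00000032291, chr9:54764748-54773110, plus strand) had the largest difference of the 9 in NPCs and in PSA-NCAM+ cells. In ESCs it stood at 14.9, 15.5 and 17.6 CPM in WT and 19.4, 22.4 and 18.7 CPM in slow/slow libraries, without overlap but not called (log2 0.34 ± 0.25, FDR = 0.304). In NPCs it stood at 28, 26.9 and 26.1 CPM in WT and 374, 514 and 633 CPM in slow/slow libraries. Every slow/slow library was far above every WT library, and the gene rose 18.8-fold (log2 4.23 ± 0.27, FDR = 3.76e-10). At the PSA-NCAM+ stage the values were 17.7, 19.7 and 21.0 CPM in WT and 386, 902 and 1076 CPM in slow/slow libraries. The rise was 40.5-fold (log2 5.34 ± 0.29, FDR = 2.89e-11), and the log2 change was 5.60 without both samples numbered 1. In neurons it stood at 60.5, 72.6 and 83.5 CPM in WT and 217, 192 and 175 CPM in slow/slow libraries. The groups stayed apart with a smaller rise of 2.70-fold (log2 1.43 ± 0.24, FDR = 6.20e-05).

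Crabp2 (ENSMUSG00000004885, chr3:87948666-87953376, plus strand) was low in ESCs, at 1.29, 0.861 and 0.934 CPM in WT and 0.882, 1.72 and 1.02 CPM in slow/slow libraries, which overlapped (log2 0.22 ± 0.35, FDR = 0.649). In NPCs it stood at 23.4, 19.7 and 20.8 CPM in WT and 78.8, 107 and 119 CPM in slow/slow libraries. The groups were separate and Crabp2 rose 4.79-fold (log2 2.26 ± 0.25, FDR = 2.91e-07). In PSA-NCAM+ cells the WT values were 21.3, 44.9 and 51.0 CPM and the slow/slow values 151, 179.8 and 177 CPM. The lowest slow/slow library again exceeded the highest WT library, with a 4.34-fold rise (log2 2.12 ± 0.24, FDR = 4.76e-07). In neurons it stood at 48.7, 60.8 and 70.1 CPM in WT and 193, 198 and 183 CPM in slow/slow libraries, a 3.19-fold rise without overlap (log2 1.67 ± 0.24, FDR = 7.92e-06). In the fit of all samples, both binding proteins were thus called higher in slow/slow cells at all 3 later stages and neither in ESCs. A fit of the ESC samples alone called Crabp1 higher there (log2 0.353, FDR = 0.00282).

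Aldh1a2 (ENSMUSG00000013584, chr9:71215789-71296243, plus strand), the enzyme of synthesis, overlaps Gm48124 on the other strand. In ESCs it stood at 9.01, 8.69 and 11.0 CPM in WT and at 8.57, 9.06 and 8.76 CPM in slow/slow libraries, and in NPCs at 1.85, 1.62 and 1.95 CPM in WT and 2.07, 2.24 and 1.95 CPM in slow/slow libraries. The genotypes overlapped at both stages, with log2 changes of -0.12 ± 0.23 (FDR = 0.718) and 0.21 ± 0.25 (FDR = 0.487). At the PSA-NCAM+ stage the values were 7.28, 4.38 and 4.79 CPM in WT and 3.02, 1.53 and 1.39 CPM in slow/slow libraries. All slow/slow libraries were below all WT libraries and Aldh1a2 fell by 1.50 on the log2 scale (SE 0.24, FDR = 2.86e-05), or by 1.65 without both samples numbered 1. In neurons the values were 9.88, 8.39 and 12.1 CPM in WT and 7.64, 5.89 and 6.41 CPM in slow/slow libraries. The fall of 0.61 there (SE 0.23, FDR = 0.0326) was less firm. Its call was lost under upper-quartile scaling (FDR = 0.0973) and on leaving out WT neuron replicate 1 or 3 or slow/slow neuron replicate 2 or 3, with FDR values up to 0.145.

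Cyp26b1 (ENSMUSG00000063415, chr6:84571414-84593908, minus strand), a breakdown enzyme, had the largest difference of the 9 in neurons. In ESCs it was scarce, at 0.532, 0.516 and 0.395 CPM in WT and 0.113, 0.409 and 0.496 CPM in slow/slow libraries, or 5 to 35 counts per library (log2 -0.54 ± 0.56, FDR = 0.469). In NPCs it stood at 2.41, 2.46 and 1.95 CPM in WT and 9.36, 7.30 and 10.9 CPM in slow/slow libraries. These groups did not overlap and the gene rose 4.05-fold (log2 2.02 ± 0.30, FDR = 1.21e-05). In PSA-NCAM+ cells it stood at 15.8, 5.64 and 7.07 CPM in WT and 44.8, 30.3 and 35.3 CPM in slow/slow libraries. The rise was 3.83-fold (log2 1.94 ± 0.27, FDR = 5.48e-06), with a log2 change of 2.36 without both samples numbered 1. In neurons it stood at 27.4, 23.3 and 27.3 CPM in WT and 497, 560.4 and 567 CPM in slow/slow libraries. The spread within each genotype was small beside the 20.8-fold rise (log2 4.38 ± 0.29, FDR = 4.78e-10).

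Cyp26a1 (ENSMUSG00000024987, chr19:37697798-37701536, plus strand), the other breakdown enzyme, was not called between genotypes at any stage. In ESCs it stood at 0.380, 0.603 and 0.413 CPM in WT and 0.204, 0.164 and 0.186 CPM in slow/slow libraries, with only 6 to 25 counts per library (log2 -1.29 ± 0.66, FDR = 0.131). In NPCs the values were 11.8, 11.6 and 10.9 CPM in WT and 20.7, 15.4 and 17.4 CPM in slow/slow libraries (log2 0.64 ± 0.40, FDR = 0.175), and in neurons 3.07, 2.83 and 2.41 CPM in WT and 6.40, 3.97 and 3.92 CPM in slow/slow libraries (log2 0.79 ± 0.41, FDR = 0.113). At these 3 stages the genotypes did not overlap, and fits of the samples of 1 stage alone called all 3 differences, with FDR values of 0.00467 in ESCs, 3.59e-05 in NPCs and 0.00201 in neurons. In PSA-NCAM+ cells the values were 17.0, 7.47 and 6.87 CPM in WT and 32.6, 7.18 and 10.5 CPM in slow/slow libraries, with replicate 1 highest in each genotype. The log2 change of 0.67 ± 0.40 (FDR = 0.155) turned to -0.23 on leaving out slow/slow PSA-NCAM+ replicate 1, whereas it was called at 1.22 without WT PSA-NCAM+ replicate 1 and at 1.07 without slow/slow PSA-NCAM+ replicate 2. Rises of the pair of breakdown enzymes were therefore called for Cyp26b1 alone in the fit of all samples.

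**Figure D3:**
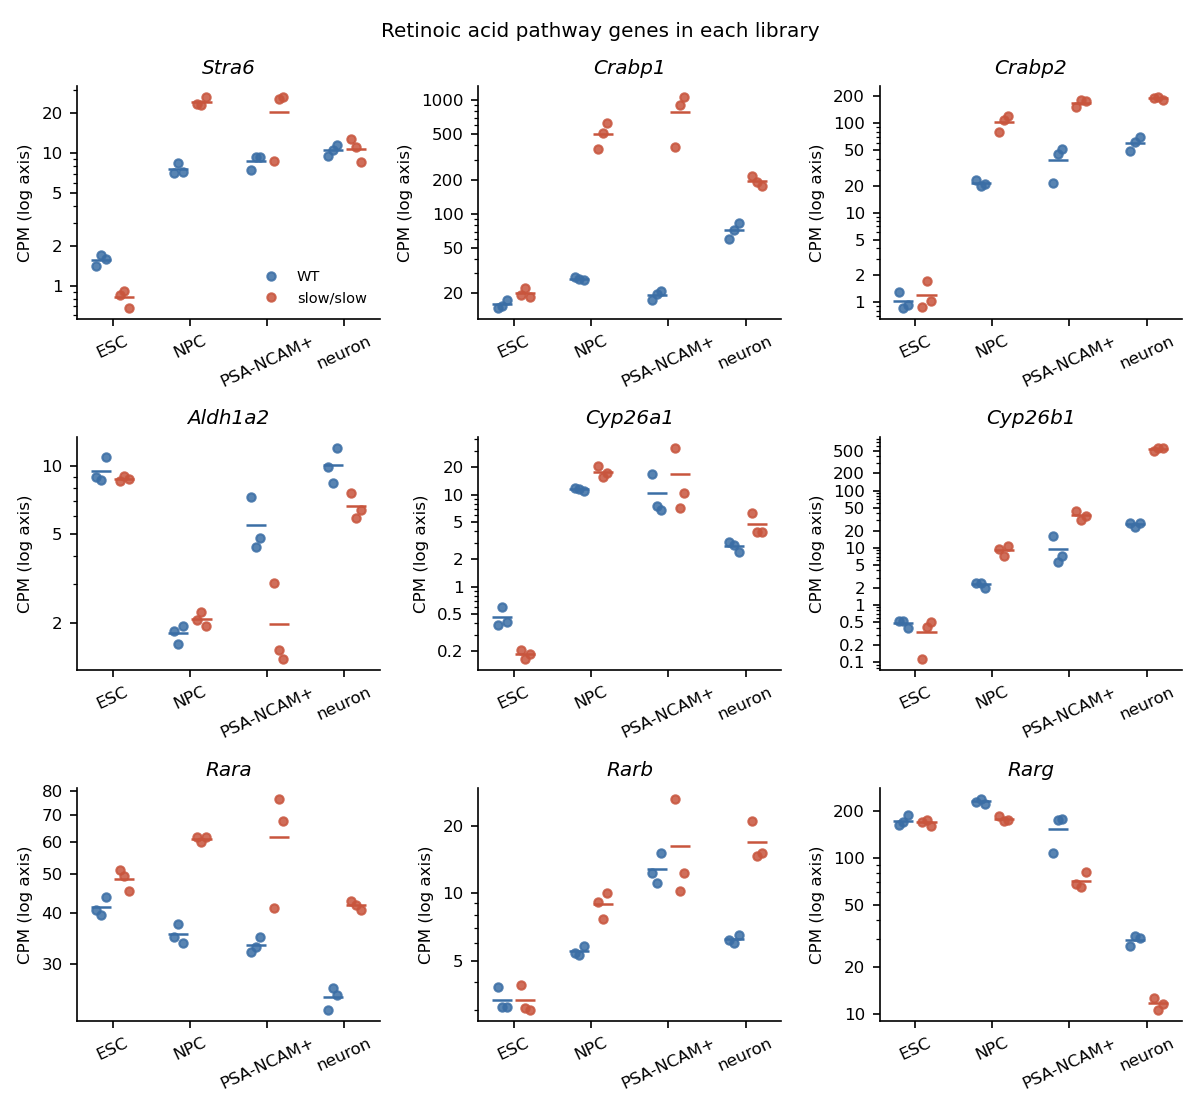
CPM of the 9 genes in each of the 24 libraries on a log axis, by stage, with WT in blue, slow/slow in red and a short line at the mean of the 3 replicates. Crabp1, Crabp2, Cyp26b1 and Rara (higher in slow/slow) and Rarg (lower) separate the genotypes at every stage after ESCs. In ESCs Crabp1 and Rara (higher) and Stra6 and Cyp26a1 (lower) also do so. The share of all genes without overlap was not computed. In PSA-NCAM+ cells the first point of a group often lies apart from the other 2.

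Rara (ENSMUSG00000037992, chr11:98927818-98974942, plus strand) holds the small gene Gm22061 on its own strand. It stood in ESCs at 40.8, 39.6 and 43.8 CPM in WT and 51.0, 49.5 and 45.4 CPM in slow/slow libraries, which did not overlap, but the log2 change of 0.23 ± 0.14 was not called (FDR = 0.187). A fit of the ESC samples alone called this rise of Rara (log2 0.248, FDR = 0.00693). In NPCs it stood at 35.0, 37.6 and 33.9 CPM in WT and 61.8, 60.1 and 61.5 CPM in slow/slow libraries, a 1.72-fold rise (log2 0.78 ± 0.14, FDR = 7.53e-05). In PSA-NCAM+ cells it stood at 32.1, 33.1 and 34.8 CPM in WT and 41.2, 76.7 and 67.4 CPM in slow/slow libraries. The groups were separate, the rise was 1.86-fold (log2 0.89 ± 0.14, FDR = 1.66e-05), and the log2 change was 1.09 without both samples numbered 1. In neurons the values were 23.1, 26.2 and 25.1 CPM in WT and 42.8, 41.8 and 40.8 CPM in slow/slow libraries, a rise of 1.69-fold (log2 0.75 ± 0.14, FDR = 0.000121). The rises of Rara were smaller in fold than those of the binding proteins and similar in size from NPCs to neurons.

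Rarb (ENSMUSG00000017491, chr14:16430839-16819156, minus strand) spans 388 kb and overlaps Top2b and Gm48162 on the other strand, so its reads carry the same reservation on strand as those of Stra6. In ESCs it stood at 3.8, 3.10 and 3.09 CPM in WT and 3.87, 3.07 and 3.00 CPM in slow/slow libraries, which overlapped fully (log2 -0.01 ± 0.26, FDR = 0.995). In NPCs it stood at 5.43, 5.28 and 5.79 CPM in WT and 9.12, 7.68 and 10.0 CPM in slow/slow libraries. The groups did not overlap and Rarb rose 1.63-fold (log2 0.70 ± 0.25, FDR = 0.0222), but the call was lost on leaving out WT NPC replicate 1 or 2 or slow/slow NPC replicate 3, with FDR values up to 0.0744. At the PSA-NCAM+ stage the values were 12.3, 11.2 and 15.2 CPM in WT and 26.5, 10.2 and 12.3 CPM in slow/slow libraries, where only replicate 1 of the slow/slow cells lay above the WT range. The log2 change was 0.34 ± 0.24 (FDR = 0.246), it was -0.23 without both samples numbered 1 and -0.17 without slow/slow PSA-NCAM+ replicate 1, and it was called at 0.62 without slow/slow PSA-NCAM+ replicate 2. In neurons Rarb stood at 6.19, 6.02 and 6.48 CPM in WT and 21.0, 14.7 and 15.1 CPM in slow/slow libraries. The groups were well apart and the rise was 2.72-fold (log2 1.44 ± 0.25, FDR = 7.32e-05).

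Rarg (ENSMUSG00000001288, chr15:102234938-102257517, minus strand) was the receptor that was called lower in slow/slow cells. In ESCs it stood at 161, 169.7 and 187 CPM in WT and 168, 175 and 160.3 CPM in slow/slow libraries, with overlap and a log2 change of -0.04 ± 0.13 (FDR = 0.838). In NPCs the values were 228, 238 and 221 CPM in WT and 186, 172 and 175 CPM in slow/slow libraries. The slow/slow libraries all lay lower, by 0.37 on the log2 scale (SE 0.13, FDR = 0.0234), but the call was lost on leaving out WT NPC replicate 1 or 2 or slow/slow NPC replicate 2 or 3, with FDR values up to 0.0783. In PSA-NCAM+ cells it stood at 108, 174 and 177 CPM in WT and 68.0, 64.8 and 80.8 CPM in slow/slow libraries, and in neurons at 27.3, 31.6 and 30.5 CPM in WT and 12.8, 10.6 and 11.7 CPM in slow/slow libraries. Without overlap at either stage, Rarg fell by 1.10 (SE 0.13, FDR = 1.02e-06) and by 1.35 (SE 0.14, FDR = 1.30e-07) on the log2 scale, and by 1.27 in PSA-NCAM+ cells without both samples numbered 1. Over all tested genes of chromosome 15, on which Rarg lies, the median log2 change of slow/slow over WT cells was -0.60 for ESCs, then -0.57 for NPCs, next -0.56 for PSA-NCAM+ cells and -0.08 for neurons. Its part in the values of Rarg was not tested. The medians of chromosomes 9 and 3, which hold Stra6, Crabp1, Aldh1a2 and Crabp2, lay between -0.07 and 0.09 at every stage.

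Each later stage was then compared with ESCs of the same genotype, which asks how the members moved along differentiation. The 3 comparisons of a genotype share its ESC samples. In WT cells 8 of the 9 were called for NPCs, next 7 for PSA-NCAM+ cells and 8 for neurons, while 65.6%, 71.2% and 82.8% of all genes tested were called in either direction. The slow/slow counts were 8 for NPCs, next 9 for PSA-NCAM+ cells and 7 for neurons, beside shares of 62.3%, 73.4% and 82.5% over all genes. From NPCs to neurons, 7 of the 9 were called in WT and 9 in slow/slow cells, beside shares of 80.2% and 75% over all genes. Most genes were called in these comparisons, and the members are described by their directions and sizes.

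Stra6, Crabp2, Cyp26a1 and Cyp26b1 rose from ESCs at each of the 3 later stages in both genotypes. The rise of Crabp2 in WT cells was 20.2-fold in NPCs (log2 4.33 ± 0.30), 37.0-fold in PSA-NCAM+ cells (log2 5.21 ± 0.31) and 56.8-fold in neurons (log2 5.83 ± 0.31). In slow/slow cells it was 82.7-fold, 138-fold and 155-fold at these stages. Stra6 rose 4.84-fold to 6.76-fold over the WT stages, and 29.3-fold in NPCs, 24.6-fold in PSA-NCAM+ cells and 13-fold in neurons of slow/slow cells. Cyp26b1 rose 4.72-fold, 19.9-fold and 54.0-fold in WT cells. Its rise in slow/slow neurons, on a log2 change of 10.68 ± 0.43, rests on 5 to 20 counts per ESC library. Cyp26a1 also rose 25.2-fold in WT NPCs and 96.1-fold in slow/slow NPCs from few ESC counts. From NPCs to neurons it then fell, by 2.05 (SE 0.42, FDR = 0.000142) in WT and by 1.90 (SE 0.41, FDR = 0.000318) in slow/slow cells on the log2 scale.

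Crabp1 moved less in WT cells. It rose 1.69-fold in NPCs (FDR = 0.0119) and 4.51-fold in neurons (FDR = 1.07e-07), and its log2 change in PSA-NCAM+ cells was 0.28 ± 0.25 (FDR = 0.318). In slow/slow cells it rose 25.1-fold in NPCs, 39.0-fold in PSA-NCAM+ cells and 9.64-fold in neurons. Between NPCs and neurons the direction of Crabp1 differed between the genotypes in these values: it rose by 1.42 ± 0.25 (log2, FDR = 2.43e-05) in WT and fell by 1.38 (SE 0.24, FDR = 3.59e-05) in slow/slow cells. The difference between those changes was not tested.

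Aldh1a2 fell from ESCs to NPCs in both genotypes, by 2.40 (SE 0.25, FDR = 5.22e-08) in WT and by 2.08 (SE 0.25, FDR = 3.57e-07) in slow/slow cells on the log2 scale. In PSA-NCAM+ cells it was still below ESCs, by a log2 change of -0.80 ± 0.23 (FDR = 0.00456) in WT and -2.17 ± 0.24 (FDR = 1.12e-07) in slow/slow cells. In neurons it was back near the ESC level, with log2 changes of 0.09 ± 0.23 (FDR = 0.736) in WT and -0.40 ± 0.23 (FDR = 0.113) in slow/slow cells. Its order in WT cells, from neurons and ESCs at the top through PSA-NCAM+ cells to NPCs, therefore has ESCs and neurons as neighbours that overlapped.

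The receptors followed different courses. Rarg, the receptor with the highest RPKM in ESCs, rose 1.33-fold in WT NPCs (FDR = 0.0109, or 0.0562 without WT ESC replicate 1). In neurons its log2 change was -2.53 ± 0.14 (FDR = 7.21e-13) in WT and -3.84 ± 0.15 (FDR = 3.58e-15) in slow/slow cells. Rarb rose from ESCs at all 3 later stages in both genotypes, most in WT PSA-NCAM+ cells among the WT stages (3.86-fold, FDR = 1.33e-06), and in slow/slow cells it rose 2.69-fold in NPCs, 4.91-fold in PSA-NCAM+ cells and 5.10-fold in neurons. Its rise in WT NPCs (log2 0.72, FDR = 0.0181) was not called without WT ESC replicate 2 or 3 or WT NPC replicate 3, with FDR values up to 0.0684. Rara fell in WT neurons by 0.74 (SE 0.14, FDR = 4.87e-05), and its log2 changes of 0.33 in slow/slow NPCs (FDR = 0.0419), 0.35 in slow/slow PSA-NCAM+ cells (FDR = 0.0277) and -0.31 in WT PSA-NCAM+ cells (FDR = 0.0461) were calls that single libraries could end. The first was lost without any 1 of the 6 slow/slow ESC and NPC libraries (FDR up to 0.152), the second without slow/slow ESC replicate 3 or slow/slow PSA-NCAM+ replicate 2 or 3 (up to 0.246), and the last without WT ESC replicate 1 or 3 or WT PSA-NCAM+ replicate 1 or 2 (up to 0.113). From NPCs to neurons Rara fell by 0.52 (SE 0.14, FDR = 0.00179) in WT and by 0.55 (SE 0.14, FDR = 0.00121) in slow/slow cells.

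**Figure D4:**
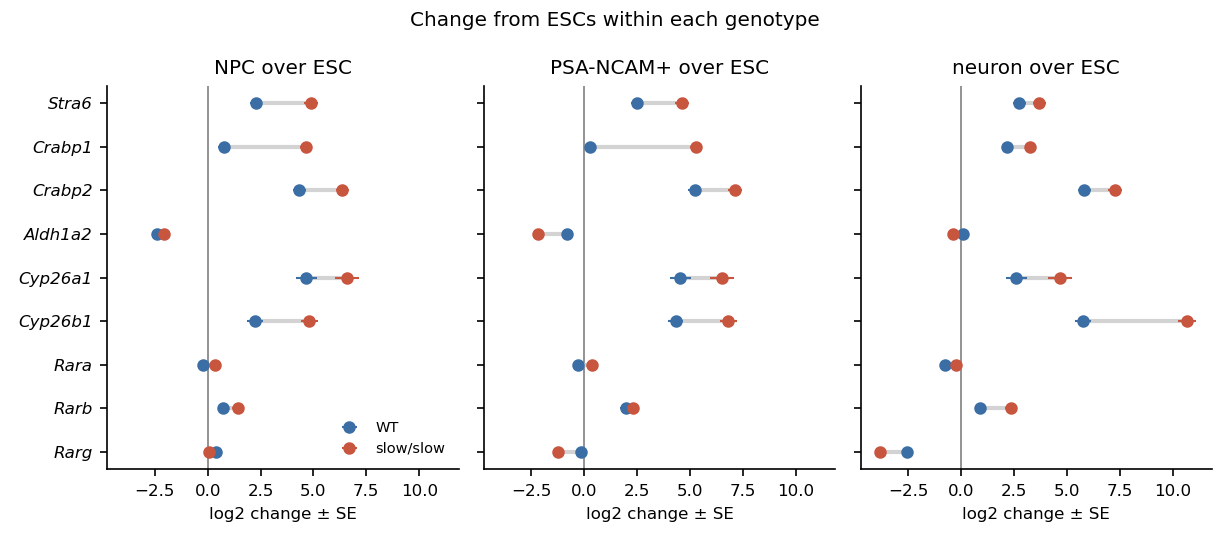
Log2 change from ESCs, with SE, of the 9 genes in NPCs, PSA-NCAM+ cells and neurons, for WT (blue) and slow/slow cells (red), joined by a grey bar. The bars are longest for Crabp1 in NPCs and PSA-NCAM+ cells and for Cyp26b1 in neurons, and Aldh1a2 is the member that lies left of 0 in NPCs of both genotypes.

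Whether the genotype difference of a member itself differed between a later stage and ESCs was tested with an interaction term. In NPCs 5 of the 9 were called, all toward higher levels in slow/slow relative to WT cells, while 24.6% of all genes were called in either direction. Stra6, among these 5, had been called lower in slow/slow ESCs. In PSA-NCAM+ cells 7 were called, 5 of them toward higher and 2 toward lower levels in slow/slow cells, where 27.1% of all genes were. In neurons 7 were called, 6 toward higher and 1 toward lower, where 42.1% of all genes were. Crabp1, Crabp2, Cyp26b1 and Rara were called at all 3 later stages. These 3 comparisons share the ESC samples, so they are not independent of each other.

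In PSA-NCAM+ cells the samples numbered 1 differed from the other 2 of their group in the same direction in both genotypes for 7 of the 9 members. Over all tested genes, the deviations of the WT and slow/slow samples numbered 1 correlated at 0.578. A shared direction was thus not confined to the members, and its share over all genes was not computed. Aldh1a2, Cyp26a1 and Cyp26b1, the enzymes of synthesis and breakdown, lay above both other replicates in WT and in slow/slow cells, at 1.59, 2.37 and 2.49 times their mean in WT and 2.08, 3.69 and 1.37 times in slow/slow cells. Stra6, Crabp1, Crabp2 and Rara lay below both other replicates in each genotype, with the lowest ratio for Stra6 at 0.334 in slow/slow cells. Rarb and Rarg did not share a direction. Without both samples the 7 calls between genotypes in PSA-NCAM+ cells were all kept, with their directions.

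Splicing of the members was examined in the percent spliced in (PSI) of exons and introns, where a difference over 10 points with a probability of its sign over 0.95 was called. Of 12 exon events listed for the members, 6 at the ESC stage, then 7 for NPCs, next 10 for PSA-NCAM+ cells and 7 for neurons had sufficient reads in all 6 samples of the stage, all of them in Rara, Rarb, Rarg or Stra6. None was called at any stage, against 0.789%, 2.92%, 0.962% and 3.51% of all exon events tested. The largest exon difference was 3.97 points, in PSA-NCAM+ cells, and no exon event passed the probability alone. Exon inclusion was high in every library, with the lowest PSI at 89.4, for an exon of Rarb in slow/slow PSA-NCAM+ cells that lay between 96.4 and 100.0 in WT. Of 71 intron events, 23, 29, 42 and 44 could be tested in these stages and none was called, against 0.0529%, 0.313%, 0.0817% and 0.263% of all intron events. With so few events, the absence of calls cannot be told apart from such low shares, for exons as for introns. Without the limit on size, 2 introns in NPCs and 1 in PSA-NCAM+ cells passed the probability. The largest intron difference was in Rarb in neurons, where PSI ranged from 5.88 to 22.7 in WT and from 0.00 to 7.32 in slow/slow libraries on as few as 16 reads. This difference of -11.9 points had a probability of 0.876. Leaving out WT neuron replicate 2 gave 1 called intron in neurons.

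Among 29 other genes of retinoid handling and receptor function, the count called higher and lower was 2 and 8 for ESCs, then 7 and 8 for NPCs, next 5 and 7 for PSA-NCAM+ cells and 8 and 7 for neurons. Over all genes tested, the shares called higher and lower were 18.5% and 21.9% in ESCs, 29.3% and 27.4% at the NPC stage, 28.6% and 28.1% for PSA-NCAM+ cells and 23.4% and 28.4% among neurons. The medians of log2 change of the 29, -0.20, -0.07, -0.08 and -0.11, were near those of all genes. Aldh1a7 and Aldh1a1, aldehyde dehydrogenases, led the rises in NPCs, with mean levels of 0.332 and 6.07 CPM in WT and slow/slow cells for the first and of 0.133 and 1.15 CPM for the second. The coactivator Ncoa3 fell from 390 to 218 mean CPM in NPCs, and Dhrs3, which reduces retinaldehyde, from 13.2 to 7.06 mean CPM in PSA-NCAM+ cells. In PSA-NCAM+ cells Cyp26c1, another gene of the breakdown family, rose by 4.19 (log2, FDR = 4.08e-05) to 4.02 ± 4.94 CPM and Aldh1a7 by 2.94. In neurons Rbp4, which carries retinol outside cells, rose from 0.552 to 8.88 mean CPM and Dhrs9 from 0.186 to 2.46 mean CPM, while Aldh1a3 fell by 2.19 and Ncoa1 by 0.67 on the log2 scale. In ESCs Adh1 and Aldh1a3 fell by 2.85 and 2.73, from 2.57 and 3.13 to 0.349 and 0.469 mean CPM, and Rdh11 rose by 0.31.

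A list of 23 genes known to respond to retinoic acid moved with the later stages. In NPCs 14 were called higher and 4 lower, where 29.3% and 27.4% of all genes were, and the median log2 change was 1.03. At the PSA-NCAM+ stage the counts were 14 and 5 (28.6% and 28.1% of all genes) with a median of 0.88, in neurons 10 and 5 (23.4% and 28.4%) with 0.60, and in ESCs 1 and 6 (18.5% and 21.9%) with -0.13. Hoxa2, a hindbrain patterning gene, rose in NPCs from 0.651 ± 0.087 to 14.0 ± 1.9 CPM (SD, n = 3, log2 4.43, FDR = 5.01e-09), at the PSA-NCAM+ stage from 1.01 to 20.4 mean CPM and in neurons from 18.3 to 84.2 mean CPM. Hoxb1 rose in NPCs from 2.77 to 25.8 mean CPM and in PSA-NCAM+ cells from 2.59 to 23.2 mean CPM. Neurog2, a proneural factor, rose in neurons from 2.97 to 48.3 mean CPM. Other members of the list moved down. Stra8 fell by 2.06 in NPCs and by 4.04 in PSA-NCAM+ cells, Tgm2 by 3.10 in NPCs, Cdx1 by 2.49 in PSA-NCAM+ cells and by 7.80 in neurons, and Olig2 by 4.69 in neurons, all on the log2 scale. In ESCs Tgm2 and Stra8 fell by 2.39 and 2.14, and Tshz1 rose by 0.72. The list was written with earlier results on these data known, and its counts are no independent evidence of a direction.

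Markers of cell types moved with the same comparisons. In slow/slow NPCs 6 of 8 pluripotency markers were called lower and their summed level fell outside the WT range, at 1534 to 1759 CPM against 2656 to 2713 CPM, and 6 of 7 neural progenitor markers were called higher, at 694 to 808 CPM against 496 to 520.0 CPM. In slow/slow PSA-NCAM+ cells 6 of 8 pluripotency markers were called lower (859 to 886 CPM against 1730 to 2332 CPM). All 7 neural progenitor markers (1615 to 1849 CPM against 732 to 954 CPM) and all 8 neuronal markers (225 to 560 CPM against 83.4 to 114 CPM) were called higher there. The summed neuronal markers of WT PSA-NCAM+ cells were thus below those of WT ESCs, at 211 to 255 CPM. In slow/slow neurons 5 of 8 neuronal markers were called lower (3373 to 3594 CPM against 4355 to 4736 CPM), while 6 of 7 neural crest markers (129 to 146 CPM against 47.7 to 52.1 CPM) and 7 of 8 markers of meningeal and other mesenchymal cells (644 to 685 CPM against 248 to 308 CPM) were called higher. The directions were not the same at every stage. In slow/slow neurons 5 of 8 pluripotency markers were called higher and 1 lower, although their summed level was 95.6 to 98.1 CPM against 110.3 to 143 CPM in WT, and 5 of 7 neural progenitor markers were called higher (2538 to 2911 CPM against 2005 to 2302 CPM). Of the neuronal markers 5 of 8 were called higher in slow/slow NPCs and 2 in slow/slow ESCs, with none lower. Neural crest markers in NPCs were called higher for 3 and lower for 4 of 7, with sums of 71.0 to 79.8 CPM against 125 to 132 CPM in WT, and for 2 and 2 in PSA-NCAM+ cells. Erbb3 made up much of the lower sum in NPCs, falling from 79.5 to 17.2 mean CPM, while Tfap2b and Foxd3 were called higher. Mesenchymal markers were called higher for 1 and lower for 3 in ESCs, for 2 and 2 in NPCs and for 2 and 3 in PSA-NCAM+ cells. In ESCs 1 pluripotency marker was called higher and 2 lower, with 2 and 1 for neural progenitors and 1 and 2 for neural crest. These counts stand beside the shares of all genes called at each stage given with the other retinoid genes. Of 7 endoderm markers, 0 were called higher and 1 lower at the ESC stage, then 3 and 0 for NPCs, next 0 and 1 for PSA-NCAM+ cells and 5 and 1 for neurons. The counts for 8 mesoderm markers were 1 and 0, 3 and 2, 2 and 1, and 3 and 5 at these stages, those for 6 astrocyte markers 1 and 2, 4 and 1, 3 and 1, and 1 and 3, and those for 7 markers of the oligodendrocyte lineage 1 and 1, 1 and 5, 1 and 0, and 3 and 1. The summed endoderm markers were 537 to 725 CPM in slow/slow against 252 to 311 CPM in WT NPCs, and the summed mesoderm markers 24.4 to 30.4 CPM in slow/slow against 88.5 to 108 CPM in WT neurons. Each sum rested largely on 1 gene. Cubn rose from 141 to 473 mean CPM in NPCs. In neurons T fell from 76.8 to 6.97 mean CPM, while Tbx1 and Hand1 were among the 3 mesoderm markers called higher. Dcn and Aqp4 were at 0 in the mean of ESCs of both genotypes, Ttr and Lum in slow/slow ESCs, and Msgn1 in slow/slow neurons. No progenitor, neuronal, neural crest or pluripotency marker was at 0 in the mean of any group. The part of these markers in the values of the 9 genes was not tested.

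The genes whose group means followed a member most closely were found by Pearson's r of mean log2 CPM over the 8 groups, among 12900 genes, as a description with no test, since groups share their stage and genotype. Crabp1 was followed by Fgf15 (r = 0.979) and Mmadhc (0.955), Crabp2 by Efnb2 (0.997) and Tbc1d2b (0.992), and Stra6 by Suv39h1 (0.979) and Greb1l (0.976). The nearest to Aldh1a2 were Mtrf1l (0.976) and 2410001C21Rik (0.969), to Cyp26a1 Fermt1 (0.989) and Slc39a8 (0.987), and to Cyp26b1 Tceal1 (0.994) and Scn9a (0.991). For the receptors they were Cdk5rap2 (0.980) and Ccdc46 (0.974) beside Rara, Limd1 (0.987) and Gli3 (0.969) beside Rarb, and Atf7ip2 (0.980) and Gfer (0.980) beside Rarg. Among the 9 themselves, Stra6 and Crabp2 had the highest r, of 0.946.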

How the data were processed

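Polyadenylated RNA of 24 samples, 3 for each of 4 stages and 2 genotypes, was sequenced from stranded libraries. The authors mapped reads to mm9 and deposited unnormalized counts of reads for each gene, made with vast-tools, and a mean RPKM per group, which has no error. They also deposited a percent spliced in (PSI) for each splicing event and sample, with quality scores that hold the reads behind it. The submitters' processing notes name bcl2fastq 2.17.1.14 and edgeR. Columns of the authors' own fold changes and adjusted p-values, and a second splicing table with 1 estimate per group, were not used. Coordinates of genes are those of GENCODE on GRCm38, matched by identifier for 94.9% of genes, and no coordinate of mm9 is given.

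Counts were analysed in R 4.3.3 with edgeR 4.0.16: filterByExpr by group left 16627 genes, TMM scaling was used, and the quasi-likelihood F test was applied to 1 model of 8 groups with 16 residual degrees of freedom. Benjamini-Hochberg adjustment covered all tested genes, with an FDR threshold of 0.05. PSI differences were called from a beta posterior of the inclusion and exclusion reads (Python 3.11.15, scipy 1.17.1). Depth of 32974432 to 104466886 counts per sample left genes under about 1 CPM on few reads. The scripts were tested on simulated data with known changes. The members and the gene lists were chosen with earlier results of these data known. All 9 members are named, and of each other list at most the 2 largest called rises and falls per stage among genes with a mean of at least 1 CPM in either genotype. A result that this rule would name is not reported here. Genes in the likeness search needed a mean of at least 5 CPM, on log2(CPM + 0.1).

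In PSA-NCAM+ cells the deviations of samples with the same replicate number correlated at 0.456 to 0.578. WT replicate 2 with slow/slow replicate 3 gave 0.488, and WT replicate 3 with slow/slow replicate 2 gave 0.282. These values set the samples numbered 1 apart but do not show that the numbers pair replicates 2 and 3. Same-number correlations were -0.197 to 0.312 in ESCs, -0.142 to -0.039 in NPCs and -0.087 to -0.008 in neurons. The replicate numbers come from the sample titles. Alternatives were DESeq2 1.42.0 size factors, upper-quartile scaling, no filter, the DESeq2 Wald test, a replicate block, the samples of 1 stage alone, a limit of 15 PSI points, and leaving out each library or both PSA-NCAM+ samples numbered 1.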

Additional observations from a re-analysis of the deposited data

Results flagged for a closer look

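The difference between genotypes at a later stage was compared with that in ESCs by an interaction term of the edgeR model, and 19 of these tests on the 9 genes were called. The values are differences of log2 changes, positive where slow/slow cells gained more over WT than in ESCs. In NPCs they were 2.60 for Stra6, 3.90 for Crabp1, 2.03 for Crabp2, 2.56 for Cyp26b1 and 0.55 for Rara. In PSA-NCAM+ cells they were 2.13 for Stra6, 5.005 for Crabp1, 1.89 for Crabp2, 2.48 for Cyp26b1 and 0.66 for Rara, with -1.38 for Aldh1a2 and -1.06 for Rarg. In neurons they were 1.10 for Crabp1, 1.45 for Crabp2, 2.08 for Cyp26a1, 4.92 for Cyp26b1, 0.52 for Rara and 1.45 for Rarb, with -1.31 for Rarg. All 3 sets use the same ESC samples.

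The calls for Rara and for Cyp26a1 were close to the threshold. That of Rara in NPCs (FDR = 0.0422) was lost without any 1 of the 6 ESC libraries, WT NPC replicate 1 or 3 or any slow/slow NPC library, with FDR values up to 0.0939. That of Rara in neurons (FDR = 0.0355) was lost without WT ESC replicate 3, slow/slow ESC replicate 3, WT neuron replicate 1 or slow/slow neuron replicate 1, up to 0.0728. That of Cyp26a1 in neurons (FDR = 0.0374) was lost without WT ESC replicate 2 or 3, any slow/slow ESC library, WT neuron replicate 2 or 3 or slow/slow neuron replicate 1, up to 0.0836.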

How the results depend on the processing

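Of the values of the 22 called differences between genotypes, 137 of 139 under other settings and 117 of 132 without 1 library kept their direction and call. In ESCs the count of members called was 1, 4 when only that stage was fitted, 2 with the DESeq2 Wald test and 0 to 1 on leaving out 1 library. The stage-only fit lowered the count of all genes called in PSA-NCAM+ cells from 9424 to 3641. The interaction for PSA-NCAM+ cells called 4502 genes, 7509 without both samples numbered 1, and 3854 to 7098 on leaving out 1 library, the highest without slow/slow PSA-NCAM+ replicate 1. Without both samples numbered 1, calls in PSA-NCAM+ cells went from 1 to 4 for endoderm, from 4 to 7 for neural crest and from 1 to 5 for oligodendrocyte markers, the last being 2 under upper-quartile scaling. With the replicate block, which groups samples of all stages by replicate number, the count of oligodendrocyte markers was 3. The interactions of Cyp26a1 then became calls in NPCs (1.92, FDR = 0.0288) and PSA-NCAM+ cells (1.91, FDR = 0.0271). The block changed no other call of a member. These interactions were also called with the DESeq2 Wald test (FDR = 0.0230 in NPCs and 0.0158 in PSA-NCAM+ cells), and that in PSA-NCAM+ cells without both samples numbered 1 (1.57, FDR = 0.0109) and without WT PSA-NCAM+ replicate 1 or slow/slow PSA-NCAM+ replicate 2 or 3 (FDR up to 0.0420). The interaction of Stra6 in neurons (0.95, FDR = 0.0703) became a call under upper-quartile scaling (1.11, FDR = 0.0350), with the DESeq2 Wald test (0.96, FDR = 0.0424) and without slow/slow neuron replicate 3 (1.09, FDR = 0.0467).

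Reversals concerned values that were not called. Under upper-quartile scaling Aldh1a2 in WT neurons against ESCs went to -0.108 and Rarb in WT neurons against NPCs to -0.096. Without both samples numbered 1, Rarb went to -0.228 between genotypes and -0.214 in its interaction, and Rarg in WT PSA-NCAM+ cells against ESCs to 0.028. Rarb in ESCs was 0.001 when that stage was fitted alone. On leaving out 1 library, the changes between genotypes in ESCs ranged from -0.168 to 0.004 for Aldh1a2, -0.140 to 0.458 for Crabp2, -0.119 to 0.115 for Rarb and -0.073 to 0.033 for Rarg. In PSA-NCAM+ cells they ranged from -0.226 to 1.217 for Cyp26a1 and -0.172 to 0.620 for Rarb, and in neurons from -0.108 to 0.163 for Stra6. The interaction of Rarb in PSA-NCAM+ cells ranged from -0.175 to 0.615, Rarg in WT PSA-NCAM+ cells against ESCs from -0.303 to 0.027, and Aldh1a2 in WT neurons against ESCs from -0.090 to 0.176. Called introns of members in neurons were 0 to 1, with 1 without WT neuron replicate 2. The cause of these shifts was not tested. Low counts limit Cyp26a1 and Cyp26b1 in ESCs.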
